A study of Mus musculus with 10 samples.

Results

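The BCL2 family decides whether a stressed cell opens the outer membrane of its mitochondria, and 10 of its genes are described here in MC38.T4 and MC38 mouse tumour cells. The genes were chosen by name, as the rows of the deposited table whose symbol was Bcl2, Bcl2l1, Mcl1, Bax, Bak1, Bid, Bad, Bbc3, Pmaip1 or Bcl2l11, and all 10 were found among 54343 rows. Cultured cells of both lines were measured by RNA sequencing of polyA-selected RNA, with 5 libraries of MC38.T4 and 5 of MC38. MC38.T4 (genotype label "Low mesothelin expression") is 1 clone, taken from a culture of a tumour that mesothelin-transfected MC38 cells had formed in C57/BL6 mice, and no drug or other treatment was applied to it in culture. MC38 (genotype label "Wild type") is the parental line as bought, never passed through an animal in this study. Clonal selection, transfection and growth in the animal therefore separate the lines together and cannot be told apart. The labels leave unsaid whether replicate libraries were grown as separate cultures. The p-values below therefore reflect the scatter among libraries, and that scatter may be technical.

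BCL2 proteins fall into camps that bind one another. Pro-survival members (BCL2, BCL-XL from Bcl2l1, MCL1) hold in check the effectors BAX and BAK, which otherwise assemble into pores and let cytochrome c out of mitochondria. BH3-only proteins (BIM from Bcl2l11, PUMA from Bbc3, NOXA from Pmaip1, BAD, BID) sense damage or loss of growth signals and either occupy the pro-survival proteins or act on BAX and BAK directly. Much of the control of the family lies in protein stability, phosphorylation and cleavage, which RNA levels do not show.

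Values are FPKM, fragments scaled by gene length and library total, so levels of different genes can be set beside each other. A gene was tested where 5 or more of the 10 libraries reached 1 FPKM, which kept 11110 genes and 9 of the 10 members. A log2 change is the mean log2(FPKM + 1) of MC38.T4 less that of MC38, a scale that understates the change of low genes, and adjusted p-values are from limma with Benjamini-Hochberg adjustment over all tested genes at a threshold of 0.05. Of the 9 tested members 5 rose, 3 fell and Bax did not pass. That count is close to the background, since 86.0% of all tested genes were called. Of all tested genes 43.1% were called higher and 42.9% lower. The median size of the log2 change was 0.23 over the 9 members, against 0.47 over all tested genes, while Bbc3, Bid and Bad each changed by more than 0.47. Only 1 of the 9, Bbc3, changed at least 2-fold, where 17.2% of all tested genes did. Values of the lines did not overlap for 6 of the 9, against 77.4% of all tested genes. Neither camp moved as one: of the 3 pro-survival genes 2 rose and 1 fell, and of the 6 tested pro-apoptotic genes 3 rose and 2 fell.

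**Figure D1:**
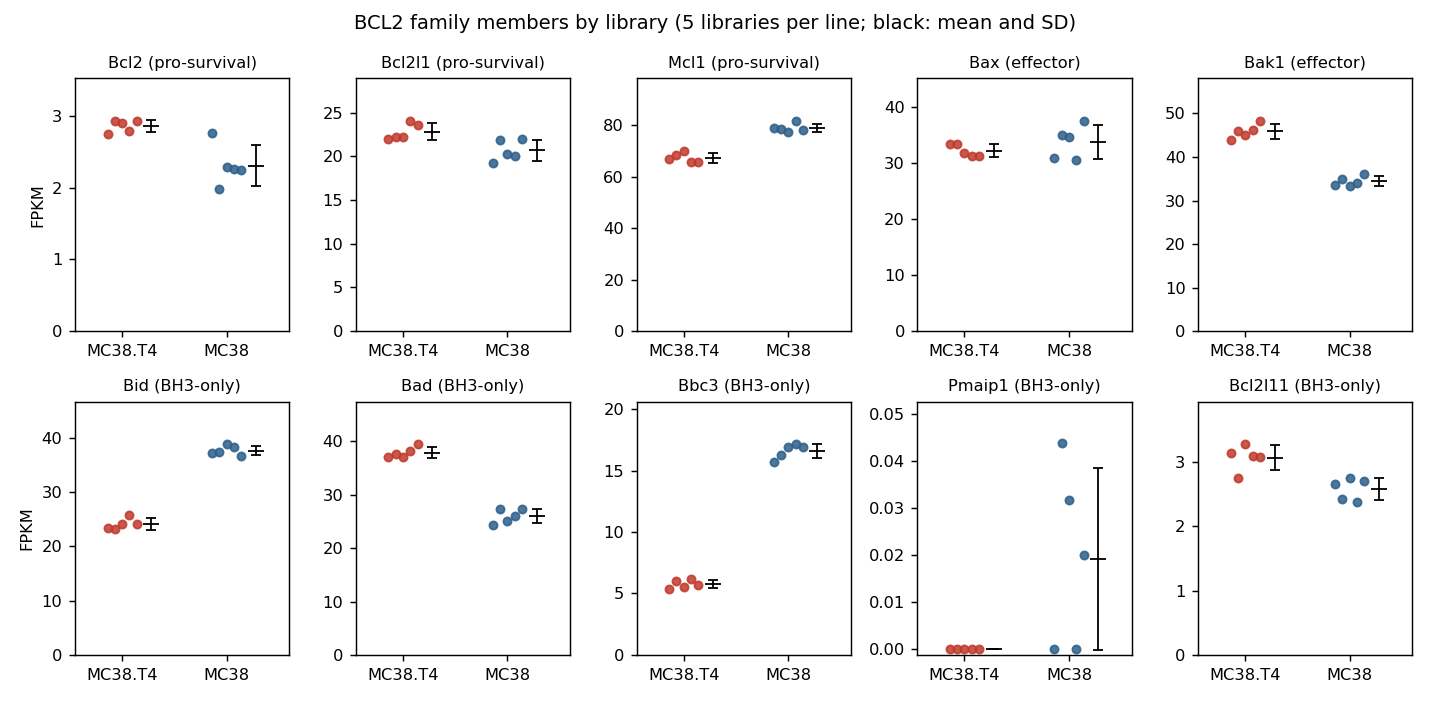
FPKM (y axis, from 0, a separate scale in each panel) of each member in the 5 MC38.T4 libraries (red, left) and the 5 MC38 libraries (blue, right), 1 point per library, with the mean and SD in black. Bbc3 and Bid stood lower and Bad and Bak1 higher in every MC38.T4 library, Bax overlapped between the lines, and Pmaip1 reached at most 0.0437 FPKM.

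The tested members covered a wide range of levels, and Mcl1 was the most abundant in both lines. In MC38.T4 the order of mean levels was Mcl1, Bak1, Bad, Bax, Bid, Bcl2l1, Bbc3, Bcl2l11, Bcl2 and Pmaip1. The ranges over the 5 MC38.T4 libraries overlapped between Bid and Bcl2l1 and between Bcl2l11 and Bcl2, and between no other neighbours in that order. In MC38 the order was Mcl1, Bid, Bak1, Bax, Bad, Bcl2l1, Bbc3, Bcl2l11, Bcl2 and Pmaip1, with overlaps between Bak1 and Bax and between Bcl2l11 and Bcl2. Bid thus stood in the fifth place in MC38.T4 and in the second in MC38, while Bad stood in the third place in MC38.T4 and in the fifth in MC38.

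Promoter windows are shown for 3 members, because Bbc3 is the gene that changed most, Bcl2l11 shares with it the binding motif of FOXO factors, and Bax, a textbook p53 target, did not pass the test. The windows run from 250 bases before to 50 bases after an annotated start site and are RefSeq sequence of mouse assembly GRCm38.p6, an older build than the GRCm39 of the submitters' notes. Windows on the chromosome that holds Pmaip1 were left out of the member search. Of the 10 members 9 were searched, 15 windows in all, and Pmaip1 was not searched. Capitals mark GTAAACA (on either strand, so also as TGTTTAC) in Bbc3 and Bcl2l11, and the E-box CACGTG in Bax.
Bbc3, chr7:16310011-16310310, plus strand: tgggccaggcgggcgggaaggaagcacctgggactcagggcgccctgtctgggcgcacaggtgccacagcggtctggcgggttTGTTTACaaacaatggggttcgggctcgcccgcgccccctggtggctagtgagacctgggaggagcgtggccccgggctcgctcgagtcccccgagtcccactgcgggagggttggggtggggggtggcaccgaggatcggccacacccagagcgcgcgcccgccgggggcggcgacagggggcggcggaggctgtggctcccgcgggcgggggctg
Bcl2l11, chr2:128125788-128126087, plus strand: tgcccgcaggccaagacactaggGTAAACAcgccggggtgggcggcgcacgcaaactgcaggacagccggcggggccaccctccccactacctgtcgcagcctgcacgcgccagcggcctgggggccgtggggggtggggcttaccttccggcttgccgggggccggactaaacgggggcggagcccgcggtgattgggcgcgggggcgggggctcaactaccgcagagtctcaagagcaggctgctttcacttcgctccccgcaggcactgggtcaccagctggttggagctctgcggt
Bax, chr7:45466849-45467148, minus strand: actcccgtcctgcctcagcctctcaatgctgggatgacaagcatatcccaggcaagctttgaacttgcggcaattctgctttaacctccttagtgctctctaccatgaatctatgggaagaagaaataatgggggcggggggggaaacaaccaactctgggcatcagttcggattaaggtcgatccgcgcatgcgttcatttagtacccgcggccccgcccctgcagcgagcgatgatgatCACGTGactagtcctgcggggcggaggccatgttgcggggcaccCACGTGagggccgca

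GTAAACA stood in 2 of the 15 member windows, 1 of Bbc3 and 1 of Bcl2l11, and in 3.65% of all 32851 windows of the same length. The E-box stood in the window of Bax, with 2 matches, and in another window of Bbc3, and in 7.15% of all windows. It does not overlap GTAAACA. A p53 half-site was found in the window of Bax alone among the 9 members searched, and in 8.36% of all windows. Pmaip1 was not among those searched, and sites outside the windows were not looked for in any member. The shares over all windows were counted without leaving out a chromosome. These matches are descriptions of letters, and binding of any factor was not measured.

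Bbc3, which encodes PUMA, a BH3-only protein that binds every major pro-survival member, changed most. Its FPKM was 5.36, 6.03, 5.56, 6.19 and 5.66 in MC38.T4 replicates 1 to 5, and 15.7, 16.3, 16.9, 17.1 and 16.9 in MC38 replicates 1 to 5. Every MC38.T4 library stood far below every MC38 library. The mean was 5.76 ± 0.34 FPKM in MC38.T4 and 16.6 ± 0.58 in MC38 (SD, n = 5 each), 2.88-fold lower. The log2 change was -1.38 (SE 0.04, 95% interval -1.47 to -1.29, limma adjusted p = 1.6e-13), and 7.55% of all tested genes changed by more in either direction. A two-sided exact permutation test gave p = 0.00794, the smallest that 5 against 5 libraries can give, and gave the same p for Bid, Bad, Bcl2l11, Bak1 and Mcl1.

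Bid fell as well. BID is cut by caspase-8 and then links death receptors to the mitochondrial pathway. Its FPKM was 23.3, 23.2, 24.1, 25.8 and 24.2 in MC38.T4, and 37.2, 37.3, 38.8, 38.2 and 36.7 in MC38. The lines did not overlap. The means were 24.1 ± 1.0 FPKM in MC38.T4 and 37.7 ± 0.85 FPKM in MC38 (SD, n = 5 each), with a log2 change of -0.62 (SE 0.03, limma adjusted p = 1.72e-10).

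Bad moved the opposite way. BAD binds BCL2 and BCL-XL and is held by 14-3-3 proteins while it is phosphorylated by survival kinases. Its FPKM was 37.1, 37.6, 37.1, 38.3 and 39.5 in MC38.T4, and 24.3, 27.3, 25.1, 26.0 and 27.3 in MC38, again with no overlap. The means were 37.9 ± 1.0 FPKM in MC38.T4 and 26.0 ± 1.3 in MC38 (SD, n = 5 each), with a log2 change of 0.53 (SE 0.04, limma adjusted p = 3.21e-09). Exons of Bad overlap those of Gpr137 on the opposite strand, and Gpr137 had mean levels of 9.22 FPKM in MC38.T4 and 5.02 FPKM in MC38. The libraries kept strand, but whether the counting used it is not given in the sources used here, so the part of Gpr137 in the rise of Bad was not tested.

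Bcl2l11, which encodes BIM, rose by a small amount from a low level. Its FPKM was 3.13, 2.75, 3.27, 3.09 and 3.08 in MC38.T4, and 2.66, 2.42, 2.75, 2.37 and 2.69 in MC38. The lowest MC38.T4 library (2.7515) lay just above the highest MC38 library (2.7472). The log2 change was 0.18 (SE 0.05, limma adjusted p = 0.00301). With quantile normalization the log2 change was 0.06 and the call was lost (adjusted p = 0.297, the highest of 18 alternatives, the lowest being 0.00129).

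Pmaip1, which encodes NOXA, a partner of MCL1, was listed at 0 in all 5 MC38.T4 libraries. In MC38 it was listed at 0, 0.0437, 0.0317, 0 and 0.0200 FPKM in replicates 1 to 5. It lay below the filter, and no fold is given. In a fit without the filter it was not called (limma adjusted p = 0.0845).

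With these changes the make-up of the BH3-only transcripts differed between the lines. Bad made up 53.5% ± 0.94 of the summed FPKM of the 5 BH3-only genes in MC38.T4 and 31.3% ± 1.3 in MC38 (SD, n = 5 each). Bid made up 34.0% ± 0.77 in MC38.T4 and 45.5% ± 1.1 in MC38. Bbc3 made up 8.13% ± 0.40 in MC38.T4 and 20.0% ± 0.39 in MC38, and Bcl2l11 4.33% ± 0.28 in MC38.T4 and 3.11% ± 0.23 in MC38. Bad thus led the group in every MC38.T4 library and Bid in every MC38 library. The ratio of Bad to Bid within a library was 1.48 to 1.63 in MC38.T4 and 0.647 to 0.742 in MC38. Such shares and ratios do not depend on how libraries are scaled to each other. They combine members, so no test is given for them.

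**Figure D2:**
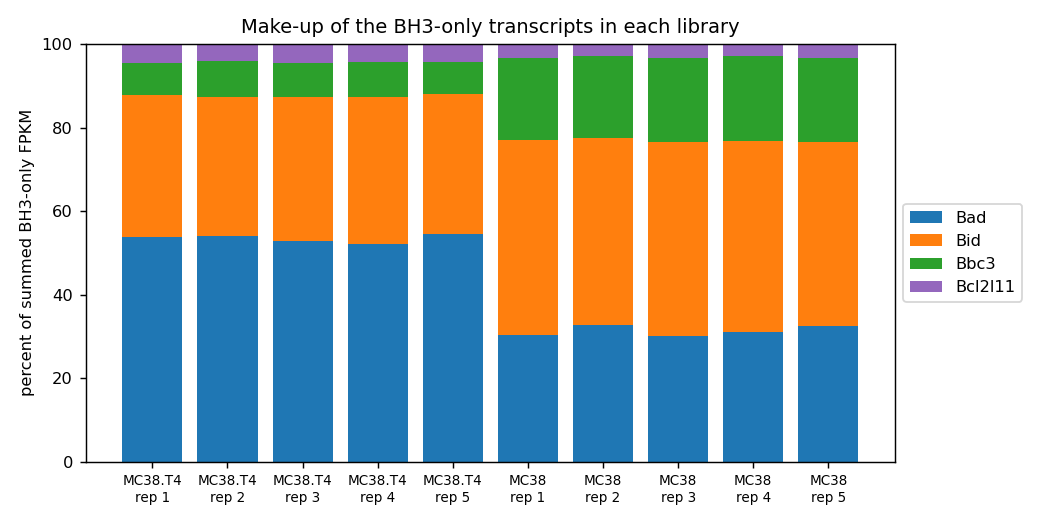
Share of each BH3-only gene (y axis, percent of the summed FPKM of the 5 genes) in each library (x axis, MC38.T4 on the left and MC38 on the right). Pmaip1 is too low to draw, and the Bad part is the largest in every MC38.T4 library while the Bid part is the largest in every MC38 library.

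The effectors differed from each other. Bak1, which encodes BAK, a protein resident in the outer mitochondrial membrane, had 43.8, 46.0, 45.0, 46.1 and 48.4 FPKM in MC38.T4, and 33.6, 35.0, 33.2, 34.1 and 36.1 FPKM in MC38. All MC38.T4 libraries stood above all MC38 libraries. The means were 45.9 ± 1.7 FPKM in MC38.T4 and 34.4 ± 1.1 FPKM in MC38 (SD, n = 5 each), with a log2 change of 0.40 (SE 0.04, limma adjusted p = 3.16e-08). Bax, whose protein moves from the cytosol to mitochondria, had 33.3, 33.4, 31.7, 31.1 and 31.2 FPKM in MC38.T4, and 30.8, 34.9, 34.6, 30.4 and 37.5 FPKM in MC38. The MC38.T4 values lay inside the MC38 range. The log2 difference of Bax was -0.06, with a 95% interval of -0.17 to 0.05, which spans ratios of 0.888 to 1.04 on the scale of FPKM + 1 (limma adjusted p = 0.295). The exact permutation test gave p = 0.341 (two-sided, n = 5 each). The ratio of Bak1 to Bax within a library was 1.43 ± 0.09 in MC38.T4 and 1.03 ± 0.07 in MC38, and its range of 1.32 to 1.55 in MC38.T4 did not overlap that of 0.961 to 1.12 in MC38.

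The pro-survival genes went both ways. Mcl1, which encodes a short-lived protein that restrains BAK and BIM, had 66.8, 68.4, 70.2, 65.9 and 65.6 FPKM in MC38.T4, and 79.0, 78.4, 77.5, 81.9 and 78.3 FPKM in MC38. The lines did not overlap, though the size of the fall was modest. The means were 67.4 ± 1.9 FPKM in MC38.T4 and 79.0 ± 1.7 FPKM in MC38 (SD, n = 5 each), with a log2 change of -0.23 (SE 0.03, limma adjusted p = 5.67e-06).

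Bcl2l1, which encodes BCL-XL, had 21.9, 22.2, 22.3, 24.1 and 23.6 FPKM in MC38.T4, and 19.2, 21.9, 20.3, 20.0 and 22.0 FPKM in MC38. The lines overlapped by a hair, at 21.93 FPKM in the lowest MC38.T4 library and 21.95 FPKM in the highest MC38 library. The log2 change was 0.14 (SE 0.04, limma adjusted p = 0.00843), the smallest of any called member, and the exact permutation p was 0.0159 (two-sided, n = 5 each).

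Bcl2, the founding member of the family, was the lowest of the pro-survival members described here. Its FPKM was 2.75, 2.93, 2.90, 2.79 and 2.94 in MC38.T4, and 2.77, 1.99, 2.29, 2.26 and 2.24 in MC38. MC38 replicate 1 stood level with MC38.T4, and the other MC38 libraries stood below every MC38.T4 library. The log2 change was 0.23 (SE 0.06, limma adjusted p = 0.00159), and the exact permutation p was 0.0159 (two-sided, n = 5 each). MC38 replicate 1 also had the lowest sum of FPKM of all libraries. Without it the log2 change of Bcl2 was 0.27 (adjusted p = 5.82e-05), and with quantile normalization it was 0.09 and the call was lost (adjusted p = 0.143, the highest of 18 alternatives, of which 5.82e-05 was the lowest).

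**Figure D3:**
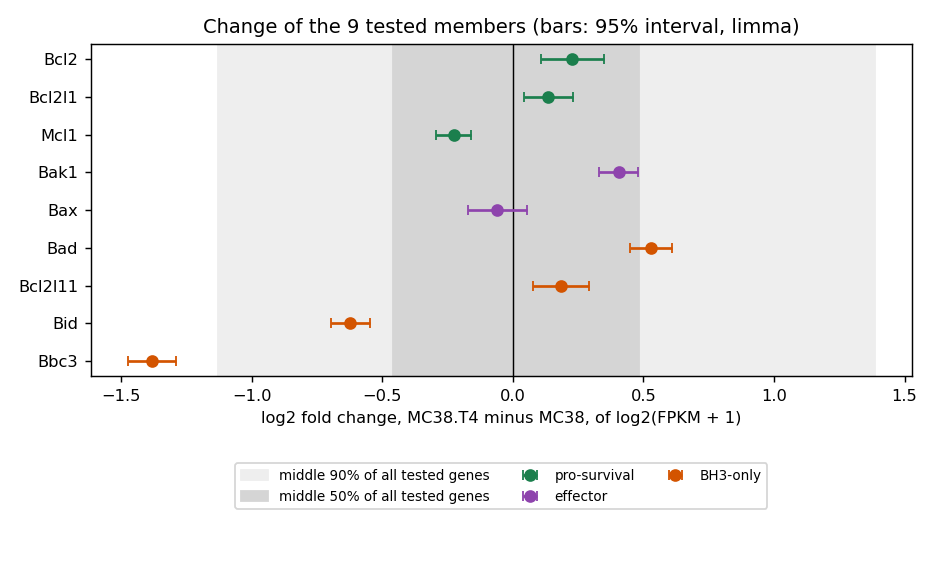
log2 fold change of log2(FPKM + 1), MC38.T4 minus MC38 (x axis), of the 9 tested members, grouped by role and colour, with 95% intervals from limma. Grey bands hold the middle 50% and 90% of all 11110 tested genes, and among the members only Bbc3, at -1.38, lies outside the wider band, whose lower edge is -1.13.

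Levels of the 10 members were also summed by role. Other family genes were left out, among them the pro-survival Bcl2l2 (11.5 FPKM in MC38.T4 and 8.39 FPKM in MC38). Bok, a relative of Bax and Bak1, was left out too (27.6 FPKM in MC38.T4 and 21.3 FPKM in MC38). The sums, shares and ratios therefore hold for the members only. The pro-survival genes summed to 93.1 ± 1.5 FPKM in MC38.T4 and 102.0 ± 1.6 FPKM in MC38 (SD, n = 5 each). The effectors summed to 78.0 ± 1.3 FPKM in MC38.T4 and 68.0 ± 3.9 FPKM in MC38. The BH3-only genes summed to 70.8 ± 1.9 FPKM in MC38.T4 and 82.8 ± 1.7 FPKM in MC38. The pro-survival and BH3-only sums were lower, and the effector sum higher, in every MC38.T4 library than in any MC38 library. Effectors and BH3-only genes together came to 148.9 ± 2.5 FPKM in MC38.T4 and 150.9 ± 4.9 FPKM in MC38, and the lines overlapped. The ratio of pro-survival to effector transcripts was 1.19 ± 0.03 in MC38.T4 and 1.50 ± 0.09 in MC38. The ratio of pro-survival to BH3-only transcripts ran the other way, at 1.31 ± 0.04 in MC38.T4 and 1.23 ± 0.03 in MC38. Against the effector and BH3-only members together the ratio was 0.625 ± 0.016 in MC38.T4 and 0.677 ± 0.023 in MC38. Mcl1 gave 72.4% ± 1.2 of the pro-survival sum in MC38.T4 and 77.5% ± 0.95 in MC38, Bcl2l1 24.5% ± 1.2 in MC38.T4 and 20.3% ± 1.1 in MC38, and Bcl2 3.07% ± 0.08 in MC38.T4 and 2.26% ± 0.29 in MC38. The sums add transcripts whose proteins differ in stability and affinity, and no test over them is given.

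**Figure D4:**
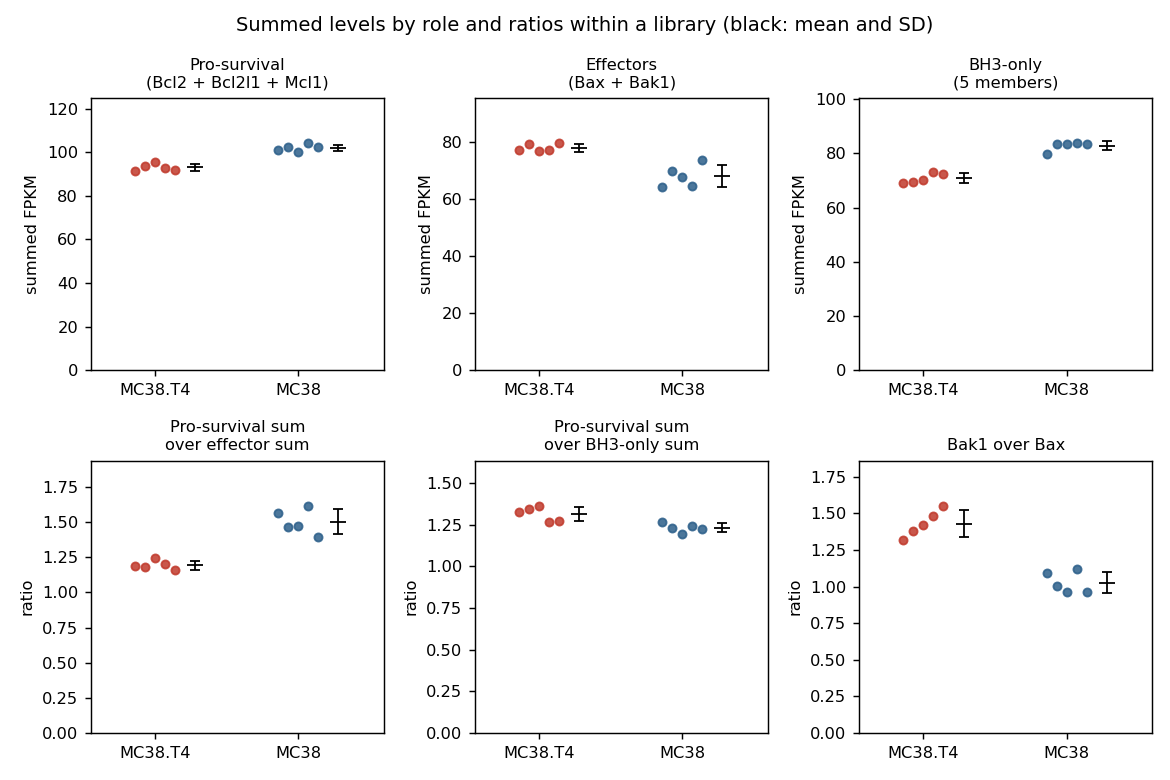
Summed FPKM of the members of each role (upper row) and ratios within a library (lower row), both from 0. The 5 MC38.T4 libraries are red (left) and the 5 MC38 libraries blue (right), with mean and SD in black. Of these panels the ratio of pro-survival to effector genes and that of Bak1 to Bax show the widest gaps between the lines, and the ratio of pro-survival to BH3-only genes the narrowest (lowest MC38.T4 library 1.2662, highest MC38 library 1.2657).

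Of 15 other genes of the BCL2 family or with related motifs 6 were tested, of which 5 rose and 1 fell. Bnip3, an outer-membrane receptor for mitophagy and a hypoxia target, had a mean of 87.4 ± 4.0 FPKM in MC38.T4 and 23.1 ± 0.64 FPKM in MC38 (SD, n = 5 each), 3.79 times as high in MC38.T4 (limma adjusted p = 1.47e-15). Its relative Bnip3l had 31.4 FPKM in MC38.T4 and 22.9 FPKM in MC38. Bcl2l2, which encodes the pro-survival protein BCL-W, rose to 11.5 FPKM in MC38.T4, against 8.39 FPKM in MC38, and Bok, a relative of Bax and Bak1, to 27.6 FPKM in MC38.T4, against 21.3 FPKM in MC38. Bcl2l12 rose to 3.80 FPKM in MC38.T4, against 2.63 FPKM in MC38, and Bcl2l13 fell to 10.8 FPKM in MC38.T4, against 12.8 FPKM in MC38. The other 9 genes lay below the filter, and the highest of them was Bmf (0.507 FPKM in MC38.T4 and 0.276 FPKM in MC38). The pro-survival genes Bcl2a1b and Bcl2a1d were listed at 0 in all 10 libraries.

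Of 20 genes for the apoptosome, caspases, their inhibitors and mitochondrial channels, 15 rose, 3 fell and 2 did not pass. Not all of them act downstream of BAX and BAK, since the list holds Casp8, whose product cuts BID. The median log2 change was 0.54, against 0.00 over all tested genes. Htra2, a mitochondrial protease that antagonises inhibitors of apoptosis once released, rose to 30.5 ± 0.61 FPKM in MC38.T4, against 11.4 ± 0.49 FPKM in MC38 (SD, n = 5 each, limma adjusted p = 3.18e-14). Apaf1, the scaffold of the apoptosome, fell to 13.2 ± 0.30 FPKM in MC38.T4, against 24.7 ± 1.7 FPKM in MC38 (adjusted p = 5.15e-11). Diablo, which encodes SMAC, another antagonist of inhibitors of apoptosis, fell to 24.7 FPKM in MC38.T4, against 44.9 FPKM in MC38.

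Of 22 tested transcription regulators that are known upstream of family members, 8 rose and 12 fell, with a median log2 change of -0.14. Myc, a factor that can sensitise cells to apoptosis, fell to 57.7 ± 9.2 FPKM in MC38.T4, against 301.6 ± 13 FPKM in MC38 (SD, n = 5 each). Atf3, a stress-induced factor, fell to 0.0322 FPKM in MC38.T4, against 41.0 FPKM in MC38. Atf3 passed the filter through MC38 alone, and Mitf (1.74 FPKM in MC38.T4 and 0.781 FPKM in MC38) through MC38.T4 alone, so the directions of these were fixed by the filter. Stat3, known to drive Mcl1 and Bcl2l1 in some cells, rose to 33.6 FPKM in MC38.T4, against 15.6 FPKM in MC38, and E2f1 to 23.4 FPKM in MC38.T4, against 14.3 FPKM in MC38. Trp53 and Foxo3, named after their values were seen because both are known to activate Bbc3, had 42.4 ± 1.7 and 7.76 ± 0.28 FPKM in MC38.T4, against 106.4 ± 5.6 and 19.5 ± 0.99 FPKM in MC38. Both fell, by 1.31 and 1.23 on the log2 scale. Of the other FOXO genes of this list Foxo1 fell by 1.28 on that scale and Foxo4 rose, with a log2 change of 0.26. Trp53 and the FOXO genes are not a full list of regulators of Bbc3, and E2f1, another regulator of this list, rose (log2 change 0.67). The part of any of these in the level of Bbc3 or of Bcl2l11 was not tested.

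Of 18 tested p53 targets outside the family, 3 rose and 13 fell, with a median log2 change of -0.36. Gadd45a, a stress-response gene, had the largest fall among the named genes of this list, to 38.1 ± 13 FPKM in MC38.T4, against 356.2 ± 13 FPKM in MC38 (SD, n = 5 each). Tnfrsf10b, the mouse TRAIL receptor, fell to 6.17 FPKM in MC38.T4, against 17.7 FPKM in MC38, and Sesn1 rose to 7.83 FPKM in MC38.T4, against 4.53 FPKM in MC38. Among family members, Bbc3, Bax and Pmaip1 are well-known p53 targets, though not a full list of them. Bbc3 fell, Bax did not pass and Pmaip1 lay below the filter.

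Of 26 tested genes whose products act on family members as proteins (ubiquitin ligases, kinases, 14-3-3 proteins, dynein light chains), 10 rose and 9 fell, with a median log2 change of 0.04. Akt1, a kinase that phosphorylates BAD, rose to 129.2 ± 5.6 FPKM in MC38.T4, against 58.1 ± 0.65 FPKM in MC38 (SD, n = 5 each, limma adjusted p = 1.1e-13). Pim3, of another kinase family that targets BAD, fell to 18.8 FPKM in MC38.T4, against 29.4 FPKM in MC38. Its relative Pim1, with a mean just below the 5 FPKM asked of named genes, fell more (1.49 FPKM in MC38.T4 and 8.51 FPKM in MC38). Pim2 did not pass. Of the 14-3-3 genes Ywhae rose to 337.6 FPKM in MC38.T4, against 215.2 FPKM in MC38, and Ywhag fell to 159.1 FPKM in MC38.T4, against 279.8 FPKM in MC38.

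**Figure D5:**
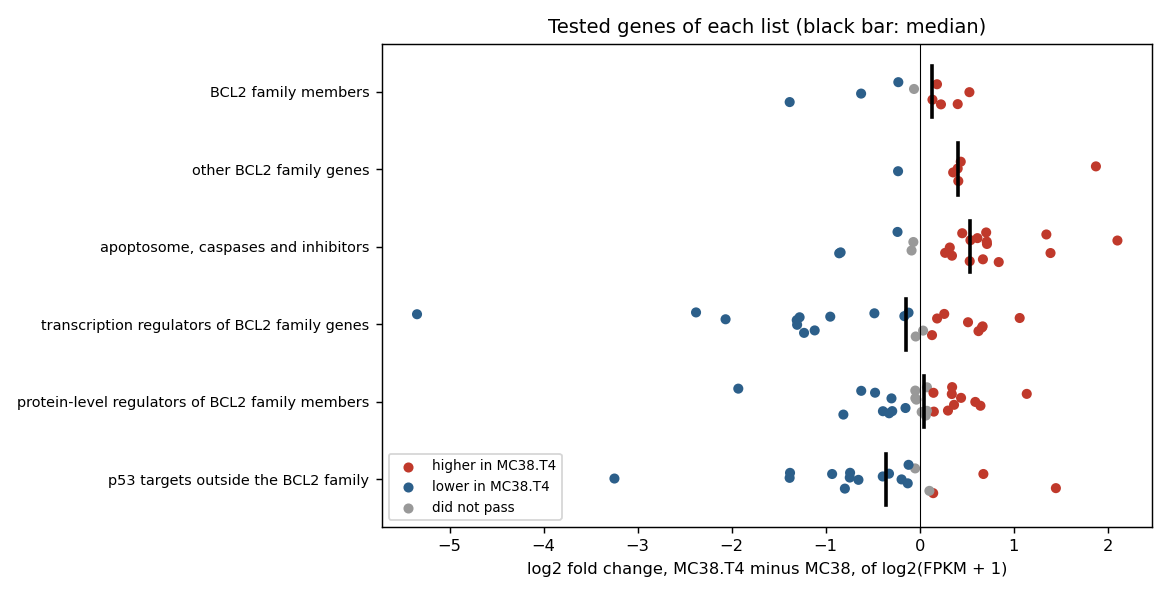
log2 fold change (x axis, MC38.T4 minus MC38, of log2(FPKM + 1)) of every tested gene in the members and the 5 other lists (y axis), 1 point per gene, red where higher and blue where lower in MC38.T4 at the threshold and grey otherwise, with the median as a black bar. The list of apoptosome and caspase genes has its median at 0.54 and that of p53 targets at -0.36, and the members at 0.14.

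Bsg, Ier5 and Tmbim4 were the genes whose pattern was most like that of Bbc3, with a Pearson r of 0.999 each over the 10 libraries. They were sought among 8080 tested genes with a mean of at least 5 FPKM. Gm and Rik gene models and ribosomal protein genes were left out of that search. Ier5 had 10.2 FPKM in MC38.T4 and 36.7 FPKM in MC38, and Tmbim4 had 23.9 FPKM in MC38.T4 and 63.4 FPKM in MC38. The points share only 2 lines, and 648 genes reached an r above 0.99, so this likeness is mostly the step between the lines.

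The sum of FPKM lay between 442183 and 484460 per library, and read totals are not given. The spacing of low values put library depths between 0.874 and 1.14 times that of MC38 replicate 1. Without MC38 replicate 1 and MC38.T4 replicate 4 (which had the highest Malat1), left out after seeing the data, 5 members rose and 3 fell as before. The tissue label says melanoma while the library names say colon adenocarcinoma. Of 7 melanocyte markers 1 was tested and Tyr was listed at 0 throughout, and none of 11 epithelial and intestinal markers passed the filter. The summed level of lymphocyte markers was 2.62 to 3.46 FPKM in MC38.T4 and 2.95 to 3.19 FPKM in MC38, nearly all of it Lck, with Cd3e, Cd3g and Cd2 at 0 in every library. The myeloid markers summed to 5.02 to 6.92 FPKM in MC38.T4 and 6.68 to 8.37 FPKM in MC38, with Adgre1 and S100a9 at 0, and the endothelial markers to at most 0.784 FPKM in MC38.T4 and 0.150 FPKM in MC38. All 6 tested fibroblast markers rose, but Col1a2, Acta2 and Pdgfrb passed the filter through MC38.T4 alone, so that a rise of these was fixed by the filter. The list summed to 351.6 to 358.1 FPKM in MC38.T4 and 34.8 to 37.9 FPKM in MC38. Most of it came from Col3a1 (247.4 FPKM in MC38.T4 and 6.44 FPKM in MC38), Dcn (58.1 FPKM in MC38.T4 and 16.8 FPKM in MC38), Pdgfra (24.5 FPKM in MC38.T4 and 12.4 FPKM in MC38) and Pdgfrb (19.2 FPKM in MC38.T4 and 0.191 FPKM in MC38), while Lum and Fap averaged below 0.1 FPKM in both lines. The part of these genes in the changes of the members was not tested.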

How the data were processed

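The authors deposited 1 table of FPKM with a gene symbol per row and 1 column per library, matched to samples by the library names in the labels (0 columns were left unused). Per the labels' protocols, libraries were made with the TruSeq stranded mRNA kit from polyA-selected RNA. The submitters' processing notes name the build GRCm39 and DESeq2, without a version or role, and no aligner, counter, annotation or filter is given in the sources used here. FPKM keeps no read counts, so no counting interval is given.

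Values were transformed to log2(FPKM + 1), genes with at least 1 FPKM in at least 5 libraries were kept, and limma 3.58.1 (R 4.3.3; trend, robust, group term only, two-sided) was fitted to all 11110. The code was tested on simulated data. Single members also had an exact permutation p from all 252 ways of labelling the libraries. Results were recomputed with TPM, a pseudocount of 0.1, no filter, a minimum of 5 FPKM, quantile normalization, equal medians, plain eBayes, a replicate block, leaving out each library, and leaving out 2 libraries (added after seeing the data).

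The members and lists were chosen with earlier results of these data known. All 173 list symbols were found. Named genes were all members, all tested genes of the list of other family genes, up to 2 rises and 2 falls of each other list with a mean of at least 5 FPKM, the 3 genes most correlated with the member that changed most, and markers reaching 5 FPKM. A gene that this rule picks is not reported here. Promoter windows are from RefSeq (GRCm38.p6). Exon overlaps were read from GENCODE M21 and used for names only. Tables, permutations and figures used SciPy 1.17.1, NumPy 2.4.6, pandas 2.3.3 and matplotlib 3.10.9 in Python 3.11.15.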

Additional observations from a re-analysis of the deposited data

Results flagged for a closer look

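The summed BH3-only level of MC38 replicate 1 was 79.8 FPKM and lay apart from the other 4 MC38 libraries, at the low end of its line. It still stood above the highest MC38.T4 library (73.3 FPKM). It was the only one of 52 groups of 5 libraries (members, sums and ratios, each in 1 line) in which a library stood apart by Dixon's test, and chance marks about 1 group in 20.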

How the results depend on the processing

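Over 19 alternatives, the directions of all 9 tested members held wherever a member was tested. Bad, Bak1, Bid, Bbc3, Mcl1 and Bcl2l1 stayed called in each, and Bax in none, its lowest adjusted p being 0.0508 (limma, rescaled to TPM). The number of members that rose was 5, and it was 3 with quantile normalization, where Bcl2 (log2 change 0.09) and Bcl2l11 (0.06) were not called, and 3 with a minimum of 5 FPKM, where these 2 genes were not tested. For quantile normalization the cause was not tested. Leaving out single libraries left 5 rises and 3 falls in every case, and 9408 to 9624 genes called overall. Replicate numbers did not pair the libraries: same-numbered libraries had correlations of deviations from -0.13 to 0.14, and 0 of 5 were most like their own number. With the replicate block 9534 genes passed and no call of a member changed. Of 643 values of 34 named genes over the alternatives 641 kept direction and call. FPKM without read counts limits Bcl2, Bcl2l11 and Pmaip1 most, being the lowest.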
